A study of Mus musculus with 20 samples.

Results

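The T cell receptor complex and its proximal signalling proteins were followed in mouse blood through 9 genes, Cd3d, Cd3g, Cd3e, Cd247, Cd8a, Lck, Zap70, Lat and Cd5. The members were all probes on the array, other than control spots, whose gene name in the scanner files was one of these symbols or Cd3z, the older name of Cd247. The rule found 14 probes of all 9 genes, on 23 spots, among 41174 probes in all, and 0 of them carried the older name. For the tests a probe was kept if 4 or more of the 20 arrays had it well above background in the mouse sample, and if each day had values on 3 or more of its arrays. This left 20920 probes, among them 12 of the 14 member probes, with at least 1 probe of each of the 9 genes.

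Blood was taken from 4 female C57Bl/6 mice, numbered 305, 310, 315 and 320, on day 0, before any tumour cells were given, and on days 10, 15, 20 and 25 after subcutaneous inoculation with Hepa1-6, a mouse hepatoma cell line. All 5 groups were the same 4 animals, 1 array for each mouse and day, and blood drawn on those later days from uninoculated mice was not analysed here. The labels give no tumour size and no cell counts. Each array held the mouse sample in the Cy5 channel beside 1 common reference, RNA from blood of untreated female C57Bl/6 mice, in Cy3.

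The T cell receptor itself has no signalling domain of its own. It is carried to the cell surface with the CD3 gamma, delta and epsilon chains and the zeta chain, whose tyrosine motifs are phosphorylated by the kinase Lck when the receptor meets peptide on an MHC molecule. The kinase Zap70 then binds these motifs and phosphorylates the adaptor Lat, on which the downstream signalling complexes assemble. In blood these genes are used by circulating T cells, and some of them, among them Cd247, Zap70, Lat and Cd5, also by other blood cells. Natural killer cells, for example, use Cd247, Zap70 and Lat. Levels in whole blood are therefore not those of T cells alone.

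Cd3g, Cd3d and Cd3e follow each other in the gene order of mouse chromosome 9 with no other gene between them, and their promoters are shown because these neighbours are 3 chains of the same complex whose levels are compared below. The sequences are from RefSeq (build GRCm38.p6), which held a promoter for all 9 member genes, and run 5′ to 3′ on the gene's own strand from 250 bases before to 50 after the start. Capitals mark GGAA, the core bound by ETS factors, and TGTGGT, bound by RUNX factors, each searched on both strands. The windows are chr9:44980382-44980681 (minus strand) for Cd3g, chr9:44981536-44981835 (plus strand) for Cd3d and chr9:45009562-45009861 (minus strand) for Cd3e.
Cd3g: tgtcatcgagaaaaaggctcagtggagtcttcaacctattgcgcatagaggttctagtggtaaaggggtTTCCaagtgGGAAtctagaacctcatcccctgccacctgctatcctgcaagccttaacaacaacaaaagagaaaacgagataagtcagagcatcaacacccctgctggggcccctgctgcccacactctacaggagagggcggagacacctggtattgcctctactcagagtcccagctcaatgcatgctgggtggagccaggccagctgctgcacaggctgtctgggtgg
Cd3d: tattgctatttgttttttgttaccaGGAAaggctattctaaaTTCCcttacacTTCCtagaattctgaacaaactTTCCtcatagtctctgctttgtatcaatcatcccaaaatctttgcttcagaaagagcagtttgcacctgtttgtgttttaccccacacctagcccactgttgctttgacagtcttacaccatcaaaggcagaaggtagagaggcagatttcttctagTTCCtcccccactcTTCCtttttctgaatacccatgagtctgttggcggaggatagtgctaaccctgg
Cd3e: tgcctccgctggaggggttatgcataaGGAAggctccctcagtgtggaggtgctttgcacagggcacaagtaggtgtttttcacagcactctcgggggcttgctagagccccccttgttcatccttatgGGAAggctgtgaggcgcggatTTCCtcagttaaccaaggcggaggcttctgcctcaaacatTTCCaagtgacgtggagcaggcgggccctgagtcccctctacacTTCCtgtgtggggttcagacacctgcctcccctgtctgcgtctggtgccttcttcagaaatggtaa
GGAA was found 2 times in the Cd3g window, 6 times in that of Cd3d and 5 times in that of Cd3e. This short motif is common, since 96.0% of the 32851 promoter windows of this length held at least 1 match, with a median of 3. TGTGGT was found 0 times in all 3 windows, and 16.8% of all windows held it. These are matches of letters only.

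Of the 45018 spots of an array 37.7% to 51.2% were well above background in Cy5. Precision is limited by the 4 arrays available for each day. The median Cy5 net intensity, the spot's mean signal less its local background, ranged from 48.9 to 67.6 on day 0, from 16.4 to 20.3 on day 10, from 12.6 to 15.9 on day 15, from 12.9 to 16.2 on day 20 and from 21.1 to 28.4 on day 25. Each day had a slide of its own, which held its 4 arrays, so that day and slide cannot be told apart in any comparison. On the array of mouse 320 on day 0 and that of mouse 305 on day 20, levels correlated least with the other arrays of their day, at a mean r of 0.39 and 0.38. Of 16 genes written down as T cell markers 15 had a probe that was kept, and Cd4 was the exception. Red cell markers (6 of 8 names kept), neutrophil markers (7 of 8), B cell markers (8 of 8) and natural killer and cytotoxic markers (9 of 9) were also measured. In whole blood fewer T cells and less RNA per T cell cannot be told apart.

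Levels are given as log2(Cy5/Cy3) after background correction and loess normalization. A level of 0 thus means the ratio to the common reference that is typical of probes of like intensity on that array. It does not mean a level equal to that of the reference. Values of different probes are not set against each other. The first values in each list of 4 are those of mouse 305, followed by mice 310, 315 and 320. A probe is called where its adjusted p in limma is below 0.05 over all 20920 probes, and differences are on the log2 scale.

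**Figure D1:**
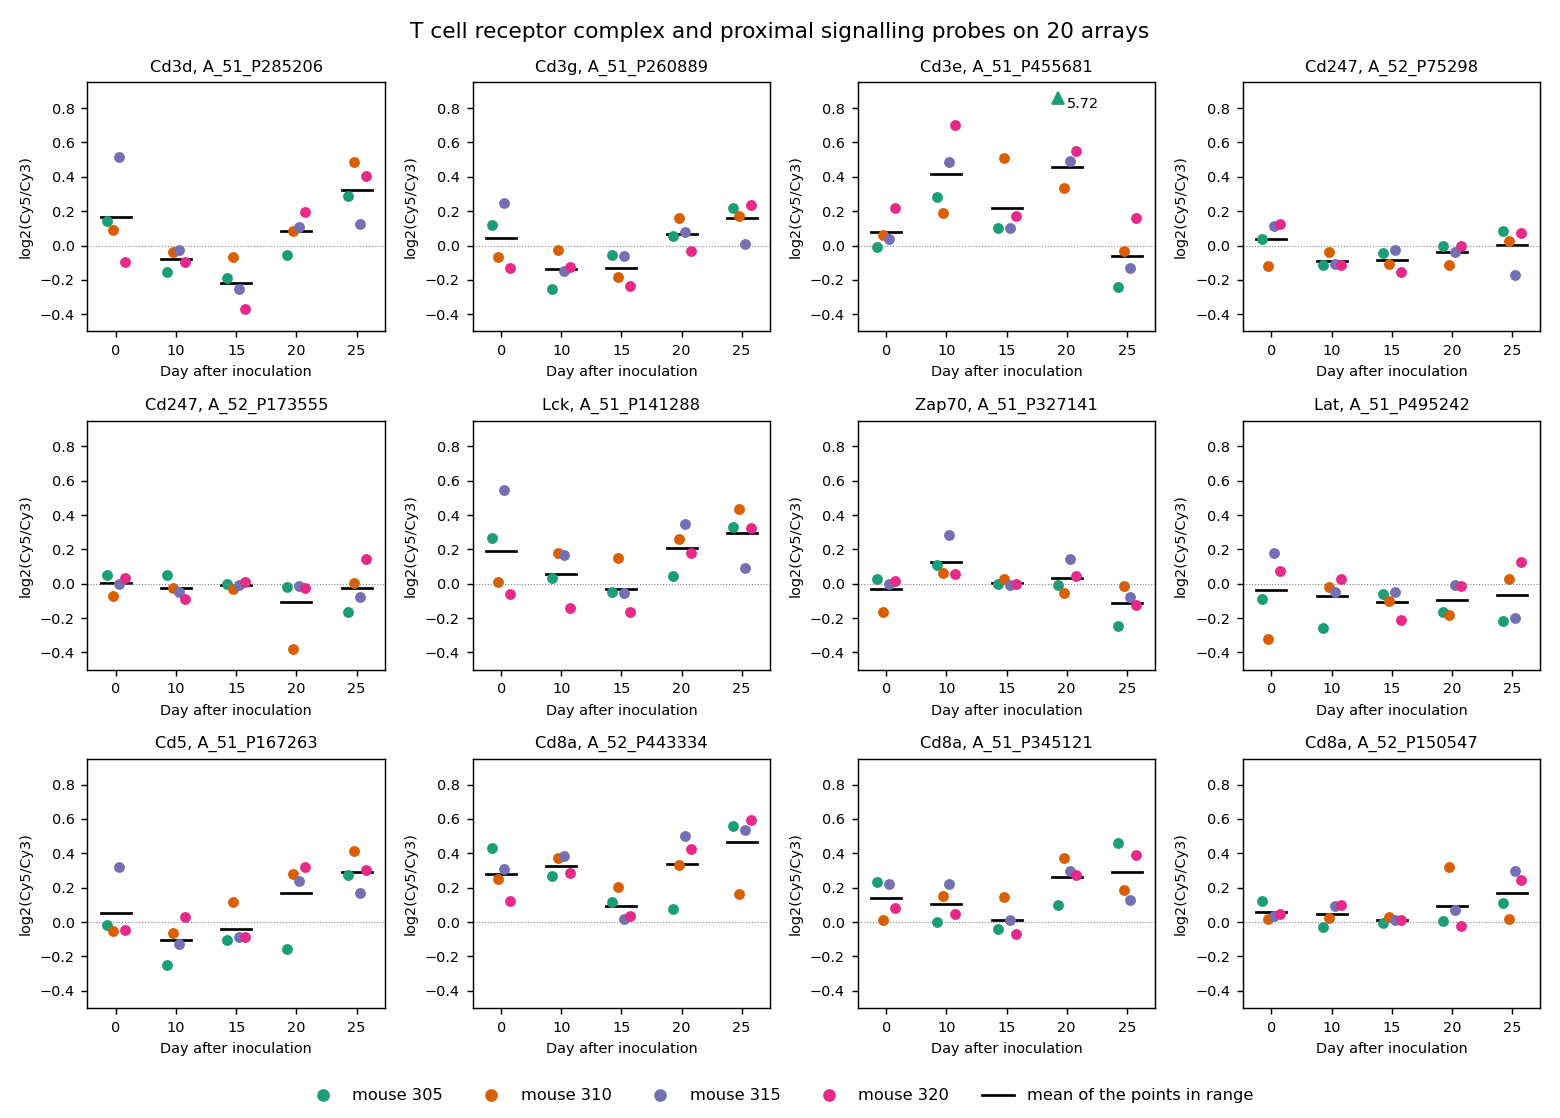
Level of each of the 12 kept member probes, as log2(Cy5/Cy3), on each of the 20 arrays by day, with 1 colour for each mouse and a bar for the mean of the points within the axis. Cd3d and Cd3g lie lowest on days 10 and 15 and highest on day 25, and the value of 5.72 for Cd3e in mouse 305 on day 20 is drawn as a triangle at the top of its panel.

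Against day 0, 1 of the 12 member probes passed the test, on 1 of the 4 later days. On day 10 none of the 12 probes passed the test, against a background of 11.2% of all probes, and 4 had an unadjusted p below 0.05. On day 15 Cd3d alone was called, lower, where 5.87% of all probes were called and 3.84% were called lower. On day 20 none of 12 was called, with 2.9% of all probes called, and on day 25 none of 12, with 0.148% of all probes called. At an unadjusted p below 0.05 there were 2 member probes on day 15, 1 on day 20 and 1 on day 25. The share of all probes below that unadjusted threshold is not given here, so these counts and that of day 10 have no background beside them. The median difference of the 12 probes from day 0 was -0.034 on day 10, -0.11 on day 15, 0.031 on day 20 and 0.11 on day 25, beside medians over all probes of -0.023, -0.015, -0.023 and -0.0019. These 4 comparisons share the day 0 arrays.

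Between day 25 and day 10, which share no array, 4 of the 12 member probes were called, those of Cd3d, Cd3g and Cd5 higher and that of Zap70 lower on day 25. In this comparison 31.5% of all probes were called, 17.7% higher and 13.8% lower, so that a share of 4 in 12 lies near the background. The values of the 2 days did not overlap in 5 of 12 member probes, beside 25.5% of all probes. The median difference of the members was 0.13, against 0.032 for all probes. The F test over the 5 days called 3 of 12 members, Cd3d, Cd3g and Cd5, beside 27% of all probes.

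**Figure D2:**
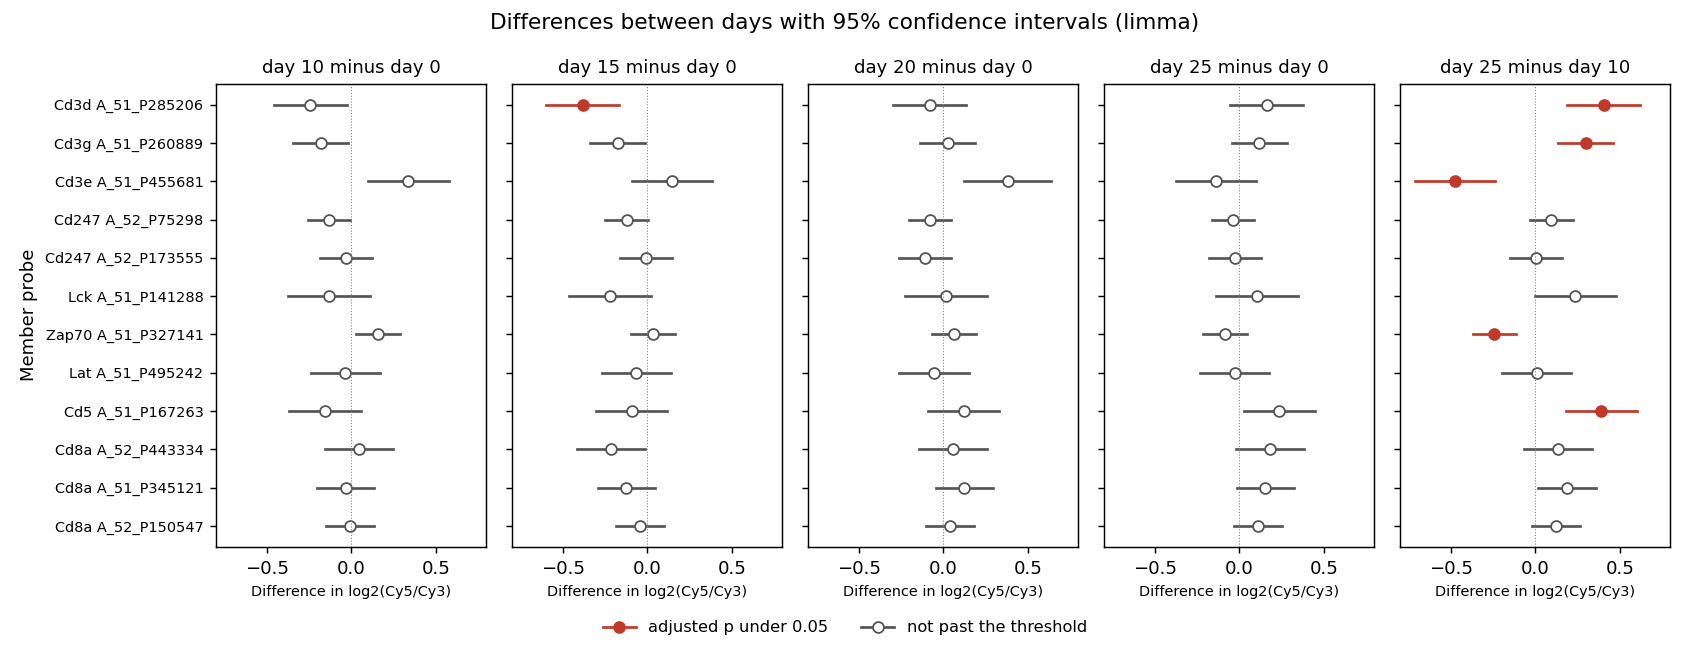
Difference in log2(Cy5/Cy3) between days for the 12 kept member probes, with 95% confidence intervals, from the fit without 2 member spots on a non-uniform local background (1 of Cd3e and 1 of 10 of a Cd8a probe). Filled points are past an adjusted p of 0.05. Cd3d is past it on day 15, and Cd3d, Cd3g, Cd5, Zap70 and Cd3e are past it between day 25 and day 10, the last 2 with lower values on day 25.

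Cd3d, the delta chain, was called both on day 15 against day 0 and on day 25 against day 10. Its level on day 0 was 0.14, 0.091, 0.52 and -0.094. The 4 values were -0.15, -0.039, -0.026 and -0.097 on day 10 and -0.19, -0.066, -0.25 and -0.37 on day 15. They were -0.055, 0.087, 0.11 and 0.19 on day 20 and 0.29, 0.49, 0.12 and 0.40 on day 25. The lowest values therefore lay on day 15, in all 4 mice below 0, and all 4 mice were above 0 on day 25, while on day 0 mouse 315 stood well above the other 3. On day 15 Cd3d averaged -0.22 ± 0.13, against 0.16 ± 0.26 on day 0 (SD, n = 4 each), a difference of -0.38 with an SE of 0.10 and a limma adjusted p of 0.0333. It was lower in 4 of 4 mice, although the values of the 2 days overlapped, since mouse 310 on day 15 lay above mouse 320 on day 0. The call was lost when any 1 of 6 arrays was left out, those of mice 305, 310 and 315 on day 0 and of mice 305, 315 and 320 on day 15, with adjusted p-values of up to 0.132, and without mouse 315 on day 0 the difference was -0.26.

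On day 25 Cd3d averaged 0.33 ± 0.16, against -0.079 ± 0.059 on day 10 (SD, n = 4 each). The difference of 0.41 (SE 0.10, limma adjusted p = 0.00700) is 1.32-fold, was seen in 4 of 4 mice and left no overlap between the days. Before any normalization the Cy5 net intensities of this probe were 4369, 3287, 3352 and 3266 on day 25 and 1885, 2195, 2126 and 2755 on day 10. The Cy3 net intensities of the same spots, the common reference, were 1232, 1216, 1202 and 1153 on day 25 and 1851, 1852, 1729 and 1831 on day 10. The mouse channel was thus brighter and the reference channel dimmer on the arrays of day 25. Differences from day 0 on the other days were -0.24 on day 10, -0.080 on day 20 and 0.16 on day 25, with limma adjusted p-values of 0.138, 0.668 and 0.416. Without mouse 320 on day 0, an array that stood apart, the day 10 difference was -0.33 and passed the test (limma adjusted p = 0.0358).

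Cd3g, the gamma chain, had a smaller range. Its values were 0.12, -0.069, 0.25 and -0.13 on day 0. They were -0.26, -0.026, -0.15 and -0.12 on day 10 and -0.055, -0.18, -0.062 and -0.23 on day 15. The 4 values were 0.054, 0.16, 0.078 and -0.029 on day 20 and 0.22, 0.17, 0.0080 and 0.24 on day 25. All 4 mice were below 0 on days 10 and 15 and all 4 above 0 on day 25, and on day 0 the mice were split. Cd3g averaged 0.16 ± 0.10 on day 25 and -0.14 ± 0.094 on day 10 (SD, n = 4 each), a difference of 0.30 (SE 0.078, limma adjusted p = 0.00813), or 1.23-fold, in 4 of 4 mice and without overlap. Its differences from day 0, -0.18 on day 10 and -0.17 on day 15, did not pass the test (limma adjusted p = 0.146 and 0.287), nor did those of 0.025 on day 20 and 0.12 on day 25.

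Cd3e, the epsilon chain, which pairs with both the delta and the gamma chain, was measured by 2 probes. The probe A_51_P455681 was well above background on 20 of 20 arrays. Its values were -0.010, 0.058, 0.037 and 0.22 on day 0 and 0.28, 0.19, 0.49 and 0.70 on day 10. They were 0.10, 0.51, 0.10 and 0.17 on day 15 and 5.72, 0.33, 0.49 and 0.55 on day 20, and -0.24, -0.034, -0.13 and 0.16 on day 25. The value of 5.72, in mouse 305 on day 20, stood apart from the other 19, which lay between -0.24 and 0.70.

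That spot had a Cy5 mean intensity of 28602 over a local background of 3668 and thus a net intensity of 24934. On the other 19 arrays the net Cy5 intensity of the same spot lay between 166 and 589 and its local background between 103 and 115. Its Cy3 net intensity was 138, within the range of the other arrays. The 24 spots around it on that array had Cy5 local backgrounds from 342 to 8809, with a median of 1505, whereas the medians for the same 24 positions lay between 105 and 118 on the other arrays. The scanner software marked the local background of the Cd3e spot as non-uniform, did not mark the spot itself and did not mark it as saturated. Only 2 member spots on all arrays carried such a mark, the other being 1 of the 10 spots of a Cd8a probe on the array of mouse 305 on day 15. The part of the raised surroundings in the Cd3e value was not tested.

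**Figure D3:**
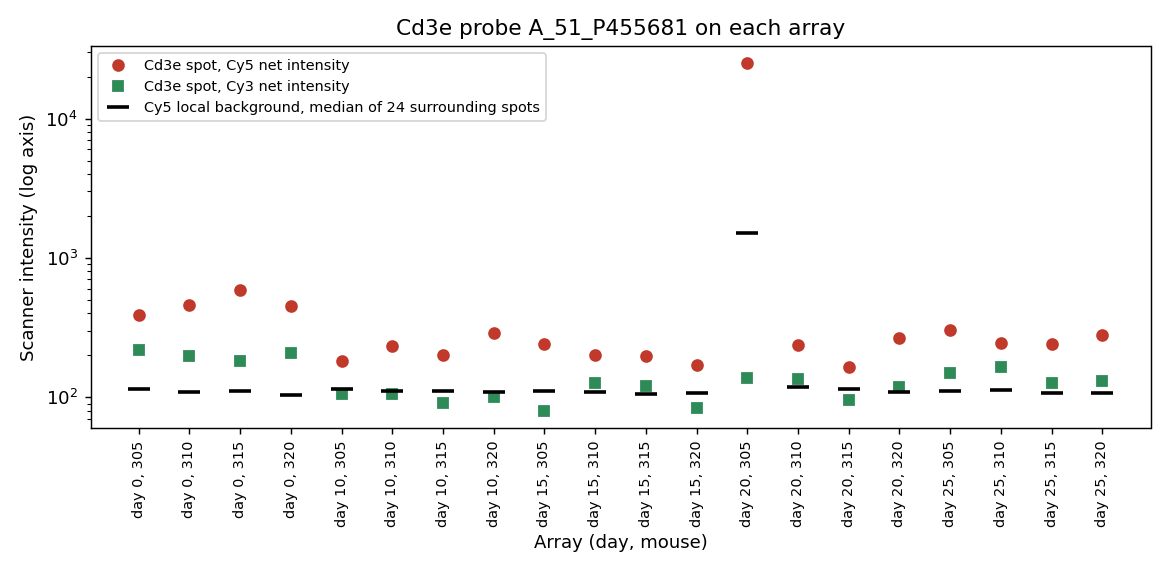
Net intensity of the Cd3e spot in Cy5 (circles) and Cy3 (squares) on each of the 20 arrays, on a log axis, with the median Cy5 local background of the 24 surrounding spots (bars). On the array of mouse 305 on day 20 the Cy5 net intensity was 24934 and the surrounding background had a median of 1505, while the other 19 arrays stay at or below 589 and 118.

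With that spot in the fit, Cd3e on day 20 averaged 1.77 ± 2.63, against 0.076 ± 0.099 on day 0 (SD, n = 4 each), and the difference of 1.70 did not pass the test (SE 0.76, limma adjusted p = 0.188). The other 3 mice averaged 0.46 ± 0.11 on day 20 (SD, n = 3). Without spots on a non-uniform background, an alternative chosen after this value was seen, the day 20 difference was 0.38 (SE 0.12, limma adjusted p = 0.0851). Leaving out the whole array of mouse 305 on day 20 gave the same 0.38 with a limma adjusted p of 0.0417.

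The spread that this single spot adds reaches the other days of Cd3e, since 1 estimate of the spread serves all of them. Cd3e averaged -0.061 ± 0.17 on day 25 and 0.41 ± 0.23 on day 10 (SD, n = 4 each), lower on day 25 in 4 of 4 mice and without overlap. The difference of -0.48 had a limma adjusted p of 0.662 with the spot and 0.00469 without it, and the F test gave 0.253 with it and 0.0114 without it. The day 10 difference from day 0 was 0.34, higher in 4 of 4 mice, with a limma adjusted p of 0.0614 without the spot. After loess normalization the Cd3e differences were thus opposite in sign to those of Cd3d and Cd3g both on day 10 against day 0 and on day 25 against day 10. Before any normalization the median net intensity of the Cd3e spot was 456 in Cy5 and 203 in Cy3 on day 0. The medians were 219 and 103 on day 10 and 262 and 140 on day 25. The mouse channel was thus dimmer on day 10 than on day 0, and not dimmer on day 25 than on day 10.

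The second Cd3e probe, A_52_P86404, was too dim to be tested. It was not well above background in Cy5 on any array of days 10 to 25, with net intensities of 3.08 to 21.4, against 2 of 4 arrays on day 0, with net intensities of 55.7 to 83.3.

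Cd247, the zeta chain that carries most of the tyrosine motifs of the complex, stayed close to 0. Its brightest probe, A_52_P75298, was at 0.039, -0.12, 0.12 and 0.12 on day 0 and -0.12, -0.036, -0.11 and -0.11 on day 10. It was at -0.045, -0.11, -0.023 and -0.16 on day 15, -0.0031, -0.12, -0.035 and -0.0032 on day 20 and 0.082, 0.024, -0.17 and 0.071 on day 25. All 4 mice were below 0 on days 10, 15 and 20. The differences from day 0 were -0.13 on day 10 (95% interval -0.26 to -0.0051), -0.12 on day 15, -0.079 on day 20 and -0.038 on day 25, and none passed the test, with a lowest limma adjusted p of 0.169. The second probe, A_52_P173555, was well above background in Cy5 on 15 of 20 arrays, 4 of 4 on days 0, 10 and 25 but 1 of 4 on day 15 and 2 of 4 on day 20. Its values lay between -0.16 and 0.14 apart from -0.38 in mouse 310 on day 20, and its day means between -0.11 and 0.0021. The third, A_51_P431364, was not well above background in Cy5 on any array, and in Cy3 only on 1 array of day 0. The offset added before taking logs draws ratios of such dim spots towards 0, so that a change of the second probe could be understated.

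Cd8a, a chain of the coreceptor that brings Lck to the receptor on cytotoxic T cells, was measured by 3 probes. The probe A_52_P443334 stands on 10 spots of each array, whose values had a median SD of 0.066 within an array, less than the pooled SD of 0.14 between mice of a day. The SD within an array ranged from 0.014 to 0.35, however, and was highest for mouse 305 on day 15, the array with the marked spot. This probe was at 0.43, 0.25, 0.31 and 0.12 on day 0 and 0.27, 0.37, 0.39 and 0.28 on day 10. It was at 0.11, 0.21, 0.018 and 0.035 on day 15, 0.078, 0.33, 0.50 and 0.43 on day 20 and 0.56, 0.17, 0.53 and 0.59 on day 25. Every value was above 0, with the lowest day mean on day 15 (0.093 ± 0.086) and the highest on day 25 (0.46 ± 0.20, SD, n = 4 each). The day 15 difference from day 0 was -0.19, lower in 4 of 4 mice (limma adjusted p = 0.408), and that of day 25 was 0.18, higher in 3 of 4 mice (limma adjusted p = 0.318). Without the marked spot the day 15 difference was -0.21 (limma adjusted p = 0.294). Mouse 310 was the exception on day 25, at 0.17 beside 0.53 to 0.59 in the others, and without its array the day 25 difference from day 0 was 0.28 (limma adjusted p = 0.0415). The F test gave 0.0606, and 0.0413 without the marked spot on day 15.

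The other Cd8a probes had their lowest and highest means on the same days. A_51_P345121 averaged 0.14 on day 0, 0.10 on day 10, 0.013 on day 15, 0.26 on day 20 and 0.29 on day 25. Its day 25 difference from day 10 was 0.19 (limma adjusted p = 0.0866), and 0.24 with 0.0440 when the array of mouse 315 on day 25 was left out. A_52_P150547, a dimmer probe, averaged between 0.011 on day 15 and 0.17 on day 25. None of the 15 differences of the 3 probes was called.

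Lck, the kinase that phosphorylates the CD3 and zeta chains, was at 0.27, 0.011, 0.55 and -0.059 on day 0. It was at 0.034, 0.18, 0.17 and -0.14 on day 10 and -0.046, 0.15, -0.054 and -0.16 on day 15. It was at 0.045, 0.26, 0.35 and 0.18 on day 20 and 0.33, 0.44, 0.090 and 0.33 on day 25. The 4 mice spread less on each later day (SD 0.13 to 0.15) than on day 0 (SD 0.28). No Lck difference passed the test. The day 15 difference from day 0 was -0.22 (95% interval -0.46 to 0.023, limma adjusted p = 0.428), and day 25 against day 10 gave 0.24 (95% interval -0.0056 to 0.48, limma adjusted p = 0.125), higher in 3 of 4 mice.

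Zap70, the kinase recruited to the phosphorylated chains, moved opposite to Cd3d and Cd3g between day 25 and day 10 after loess normalization. Its values were 0.027, -0.16, 0.0010 and 0.016 on day 0 and 0.11, 0.064, 0.28 and 0.059 on day 10. They were -0.00034, 0.030, -0.0065 and -0.0022 on day 15, -0.0065, -0.056, 0.14 and 0.047 on day 20 and -0.25, -0.011, -0.075 and -0.12 on day 25. All 4 mice were above 0 on day 10, the day with its highest mean, and all 4 were below 0 on day 25, the day with its lowest. Zap70 averaged -0.11 ± 0.099 on day 25 and 0.13 ± 0.11 on day 10 (SD, n = 4 each), a difference of -0.24 (SE 0.062, limma adjusted p = 0.00686), lower in 4 of 4 mice and without overlap. On day 10 it did not overlap with day 0 either, but the difference of 0.16 did not pass the test (limma adjusted p = 0.105). For day 10 against day 0, 1 of 12 members and 19.7% of all probes did not overlap. The Zap70 spot was dim on the later days, with net Cy5 intensities of 168 to 243 on day 10, 56.9 to 86.5 on day 15 and 163 to 248 on day 25. Before any normalization its median net intensity was 179 in Cy5 and 138 in Cy3 on day 10. On day 25 the medians were 183 in Cy5 and 107 in Cy3, so the mouse channel was not dimmer on day 25.

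Lat, the membrane adaptor phosphorylated by Zap70, had day means between -0.10 on day 15 and -0.038 on day 0, a narrower range than the spread of the 4 mice on day 0 (-0.32 to 0.18). The differences from day 0 lay between -0.066 and -0.028, with 95% intervals reaching from -0.27 to 0.18, and day 25 against day 10 gave 0.0070 (95% interval -0.20 to 0.21). None passed the test, and the F test gave an adjusted p of 0.973.

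Cd5, a surface receptor that dampens T cell receptor signalling, was at -0.018, -0.050, 0.32 and -0.046 on day 0. It was at -0.25, -0.061, -0.13 and 0.032 on day 10 and -0.11, 0.11, -0.087 and -0.087 on day 15. It was at -0.16, 0.28, 0.24 and 0.32 on day 20 and 0.27, 0.41, 0.17 and 0.30 on day 25. On day 20 mouse 305 was low beside the other 3, whereas on day 25 all 4 mice were above 0. Cd5 averaged 0.29 ± 0.099 on day 25 and -0.10 ± 0.12 on day 10 (SD, n = 4 each), a difference of 0.39 (SE 0.10, limma adjusted p = 0.00779), or 1.31-fold, in 4 of 4 mice and without overlap. Its day 25 difference from day 0 was 0.24 and did not pass the test (limma adjusted p = 0.233).

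The size of these differences depended on the normalization. With each array centred on its median in place of loess, day 25 exceeded day 10 by 1.71 for Cd3d, 1.46 for Cd3g and 1.66 for Cd5, Zap70 turned to 0.48 (limma adjusted p = 0.108), and the median of all probes was 0.39. Between day 10 and day 0 the same centring gave a median of -1.19 for the members and -0.39 for all probes. With scaling between arrays Cd3d, Cd3g and Cd5 were no longer called (limma adjusted p = 0.214, 0.134 and 0.164), and Cd5 was not called with the scanner's own log ratio (0.0745) or from the Cy5 channel alone (0.318).

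**Figure D4:**
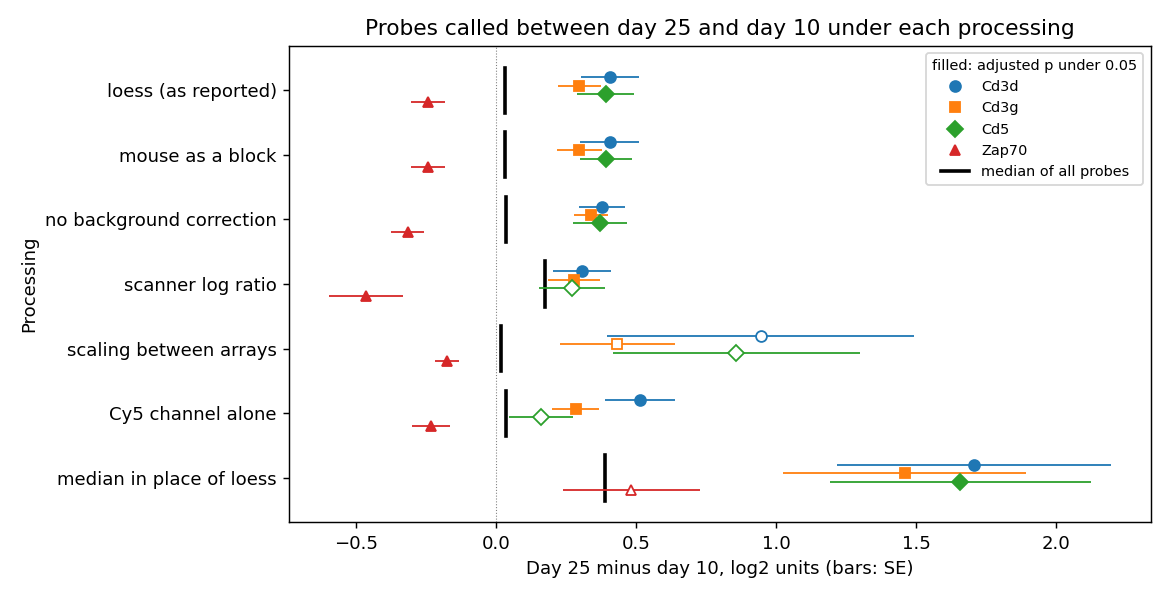
Day 25 minus day 10 for Cd3d, Cd3g, Cd5 and Zap70 under 7 ways of processing, in log2 units with SE bars, filled where the adjusted p is below 0.05, with the median of all probes as a black bar. Cd3d, Cd3g and Cd5 stay above 0 in all 7, at 1.46 to 1.71 with median centring, and Zap70 is below 0 in 6 of 7.

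The members varied together only in part. Over the 20 arrays, 7 of the 12 probes had a Pearson correlation above 0.5 with the per-array median of the 12, from 0.55 for Cd247 (A_52_P75298) to 0.93 for Cd8a (A_51_P345121), and 3 were below 0, Zap70 at -0.20, Cd3e at -0.15 and Cd247 (A_52_P173555) at -0.052. Each probe is part of that median, and the arrays share mice and slides. Among 18019 other probes compared with the member median, genes among those with the most similar pattern over the 20 arrays were Use1 (r = 0.85), Rnaset2b (0.84), Rps15 (0.84) and Churc1 (0.84).

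Of 52 further genes of the pathway, 47 had a probe on the array and 44 had one that was kept, with 77 probes. On day 10 no probe was called higher and 10 probes of 8 genes were called lower than on day 0, on day 15 none higher and 8 probes of 7 genes lower, on day 20 none higher and 2 lower, and on day 25 none either way. These counts are 13%, 10.4%, 2.60% and 0% of the 77 probes. Of all probes 7.12%, 3.84%, 1.98% and 0.11% were called lower on those days and 4.08%, 2.03%, 0.918% and 0.0382% higher. Between day 25 and day 10, 15 probes of 13 genes were higher and 3 were lower on day 25, or 23.4% beside 31.5% of all probes. The median difference of the list was -0.089, -0.050, -0.074 and -0.015 against day 0, in the order of days, and 0.074 between day 25 and day 10.

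Bcl10, an adaptor that links antigen receptors to NF-kB, fell on days 10, 15 and 20 in 1 of 2 kept probes. The probe A_51_P209527 was at 0.22, 0.17, 0.25 and 0.23 on day 0, -0.41, -0.28, -0.12 and -0.16 on day 10, -0.090, -0.19, -0.074 and -0.29 on day 15, -0.086, -0.26, -0.23 and -0.21 on day 20 and -0.15, 0.12, 0.075 and 0.058 on day 25. No value of days 10, 15 and 20 reached the lowest of day 0, and the differences were -0.46, -0.38 and -0.42 (limma adjusted p = 0.00115, 0.00313 and 0.00462). Its other kept probe was called on day 10, at -0.56, and not on days 15 and 20, at -0.13 and -0.41. Fyb, an adaptor that joins the receptor to integrin adhesion, fell by 0.32 on day 10, by 0.44 on day 15 and by 0.38 on day 20 (limma adjusted p = 0.0205, 0.00407 and 0.0213), and its other kept probe, at -0.092, -0.17 and -0.18, was not called. Txk, a kinase of the Tec family used in T cells, fell by 0.50 on day 10 and by 0.44 on day 15 (limma adjusted p = 0.00266 and 0.00628), while its other kept probe differed by -0.095 and -0.051 and was not called.

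Grb2, an adaptor of growth factor and antigen receptors, fell in both of its called probes on days 10 and 15, by 0.33 to 0.51. Skap1, which works with Fyb, fell by 0.27 and 0.29 and Ptpn22, a phosphatase that acts on Lck, by 0.38 and 0.47 on days 10 and 15. Both Grb2 and Ptpn22 are also used by other blood cells. The probe A_52_P677117 of Ptprc, the phosphatase CD45 found on all leukocytes, fell by 0.56 on day 10, and its other 3 kept probes were not called. Pag1, an adaptor that holds the inhibitory kinase Csk, fell by 0.37 on day 10. The call of Pag1 was lost without any 1 of 5 arrays, those of mice 305 and 310 on day 0 and of mice 305, 315 and 320 on day 10 (limma adjusted p up to 0.0921). That of Ptpn22 on day 10 was lost without any 1 of 11 arrays (up to 0.189), and on day 15 without mouse 305 or 315 on day 0 or mouse 315 or 320 on day 15 (up to 0.131). On day 15 the Grb2 probe A_51_P198411 lost its call without mouse 305, 310 or 315 on day 0 or mouse 320 on day 15 (up to 0.0883), and A_51_P198410 without mouse 315 on day 0 or mouse 320 on day 15 (up to 0.0548). Fyb lost its call on day 10 without mouse 310 or 315 on day 0 or mouse 305 on day 10 (up to 0.0755), and on day 20 without mouse 310 or 315 on day 0 or mouse 315 on day 20 (up to 0.0945). Skap1 lost its call on day 10 without mouse 320 on day 10 (0.0574), and the second Bcl10 probe without mouse 305 on day 0 or mouse 315 on day 10 (up to 0.0635). Of the 38 differences of pathway probes past the threshold, 25 kept direction and call with median centring, 31 with the scanner's log ratio and 14 with scaling between arrays.

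Cd8b1, the partner chain and gene neighbour of Cd8a, was called lower on day 15 than on day 0 and higher on day 25 than on day 10. Its probe A_51_P150433 was at -0.63, -0.22, -0.81 and -0.50 on day 15, against -0.050, 0.13, 0.33 and -0.45 on day 0, and the difference was -0.53 (SE 0.14, limma adjusted p = 0.0332). The call was lost without any 1 of 6 arrays, those of mice 305, 310 and 315 on day 0 and of mice 305, 315 and 320 on day 15 (adjusted p up to 0.130). On day 25 it was at 0.42, 0.59, 0.16 and 0.33, against -0.18, -0.10, -0.15 and -0.47 on day 10, a difference of 0.60 (SE 0.14, limma adjusted p = 0.00462). Its other kept probe differed by 0.019 between day 25 and day 10 and was not called. Between day 25 and day 10 Ptprc (0.83), both Grb2 probes (0.49 and 0.45), Bcl10 (0.27 and 0.50), Txk (0.39), Ptpn22 (0.43), Fyb (0.31), Skap1 (0.22), Malt1 (0.32), Nfatc1 (0.35), Sh2d1a (0.25) and Nck1 (0.15) were also higher on day 25. Grap2, an adaptor that binds Lat complexes, Sh2d2a and Ptpn6, the inhibitory phosphatase SHP-1, differed by -0.53, -0.19 and -0.14, lower on day 25. The call of Ptpn6 was lost without any 1 of 14 of the 20 arrays (limma adjusted p up to 0.158) and with the mouse as a block (0.0623). That of Nck1 was lost without any 1 of 7 arrays (up to 0.126), that of Malt1 without mouse 315 on day 10 or mouse 305 on day 25 (up to 0.0736), that of Sh2d1a without mouse 305 on either day (up to 0.0510), and that of Skap1 without mouse 320 on day 10 (0.0580). Other kept probes of Ptprc, Fyb, Txk, Malt1, Nfatc1, Nck1, Grap2 and Ptpn6 were not called in this comparison.

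Some lists of markers of other blood cells also differed between days, among them those of red cells and neutrophils. Their part in the members' values was not tested. The 25 kept probes of the T cell list, which holds 6 of the 9 members, had a median difference from day 0 of -0.088 on day 10, -0.11 on day 15, -0.028 on day 20 and 0.046 on day 25, with 2, 5, 0 and 0 probes called lower and none higher. Between day 25 and day 10 the median was 0.17, with 9 of 25 probes called higher and none lower. Of all probes, 7.12%, 3.84%, 1.98% and 0.11% were called lower than on day 0 on days 10, 15, 20 and 25. Called higher were 4.08%, 2.03%, 0.918% and 0.0382%. Between day 25 and day 10, 17.7% of all probes were called higher and 13.8% lower. The B cell list had 5 of 10 probes called higher and none lower in that comparison, and none called against day 0 on any later day. The natural killer and cytotoxic list had 0 of 12 called in any of the 5 comparisons. Against day 0 the monocyte list had 1 of 10 probes called, lower on day 15, and the platelet list 0 of 5. Between day 25 and day 10 the monocyte list had 1 probe called higher and 1 lower. The platelet list had 2 of 5 called lower there, and the neutrophil list 1 of 9 called higher. The 9 probes of the red cell list were all called lower on day 25 than on day 10, with a median difference of -1.63. Against day 0 their median difference was 0.68 on day 10, with 3 of 9 called higher, 0.68 on day 15, with 1 called higher, 0.19 on day 20 and -0.97 on day 25, with none called on the last 2 days. The neutrophil list, 9 probes, was lower than on day 0 on all later days, with median differences of -0.85, -0.67, -0.87 and -0.50 and 6, 5, 6 and 2 probes called lower. The summed Cy5 signal of the neutrophil list, after quantile normalization of that channel, ranged from 20794 to 63702 on day 10, against 192445 to 214457 on day 0. For the T cell list the same sum ranged from 33219 to 39675 on day 25, against 22510 to 31822 on day 10, and its highest value on day 20, 72586, includes the Cd3e spot. Cd4, Ly6g and Alas2, defining markers of helper T cells, neutrophils and red cell precursors, had no kept probe under these names.

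**Figure D5:**
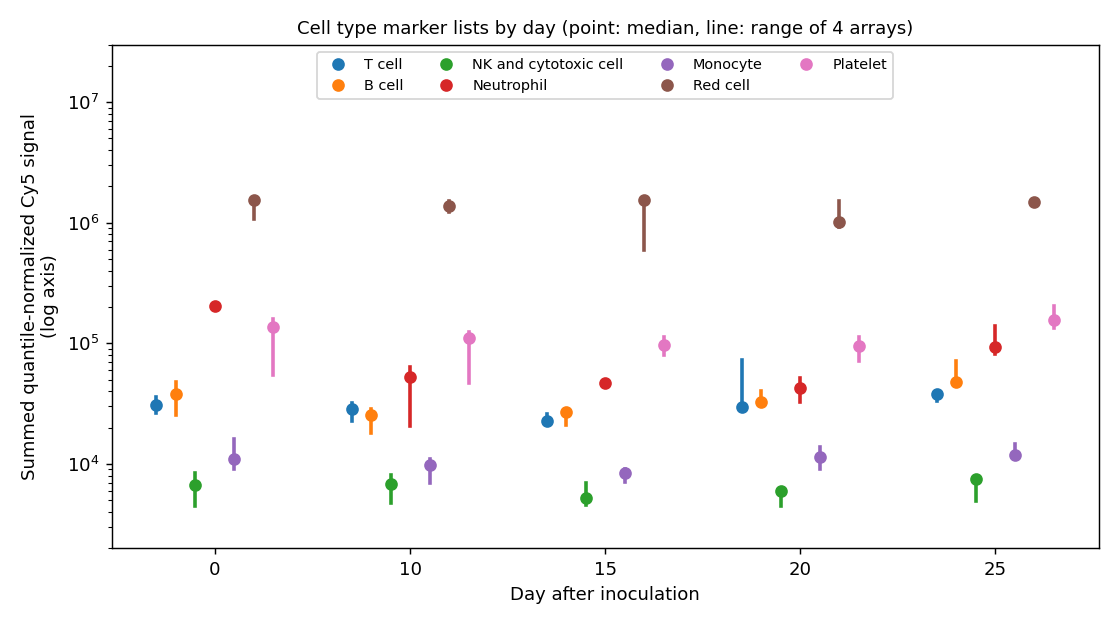
Summed Cy5 signal of 7 marker lists after quantile normalization, on a log axis, by day, with the median of 4 arrays as a point and their range as a line. The T cell sum stays between 21010 and 39675 apart from 72586 in mouse 305 on day 20, and the neutrophil sum is highest on day 0, at 192445 to 214457.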

How the data were processed

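Blood RNA of 4 mice on 5 days was measured on 20 arrays, 4 for each day. Intensity was deposited as scanner output of Agilent Feature Extraction 9.1.3.1 (the version in the submitters' processing notes), with a mean signal and a median local background for both channels of each spot. Per the file headers, that software also wrote a log10 ratio, red over green, for every spot. The deposited series table held the same log10 ratio in 900360 of 900360 values (100%, equal within 1e-06), which settles its scale, centring and direction. Dyes were not swapped, per the labels, and red (Cy5) held the mouse sample. Neither a genome build nor probe sequences are given in the sources used here.

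Values here start from the deposited intensities. Background was corrected with normexp (offset 50), ratios were loess-normalized within arrays (weight 0 for control spots), and spots marked as non-uniform features (10 to 248 per array) and 1639 control spots were left out. Spots of a probe were averaged and every probe was tested separately on log2(Cy5/Cy3), in 1 limma fit of all 20 arrays with 5 day means (limma 3.58.1, R 4.3.3, version 1.17.8 of data.table), with two-sided tests and Benjamini-Hochberg adjustment over 20920 probes at 0.05. The fit was tested on simulated data.

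Symbols came from a RefSeq table (GRCm38.p6). Accessions named 23374 of the 41174 probes (56.8%), symbols 6733 (16.4%) and synonyms 2919 (7.09%), while 8148 (19.8%) have only the name used in the scanner files. Members, pathway genes and marker lists were chosen with earlier results of these data known. The genes named are all members, the pathway genes past the threshold in any comparison, and the 5 genes most like the members' median, apart from items that are not reported here. The same 4 animals gave blood on all 5 days, so mouse numbers pair the arrays. Deviations from day means correlated at a mean of 0.0856 over 40 pairs of arrays of the same mouse (21 above 0.1), and at -0.0291 over 120 pairs of different mice and days. Alternatives were median centring, the scanner's ratio, scaling between arrays, Cy5 alone, no background correction, other filters on dim probes, the mouse as a block, leaving out each array and, chosen after seeing the data, leaving out spots on a non-uniform background.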

Additional observations from a re-analysis of the deposited data

Results flagged for a closer look

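In 10 of 60 groups of 4 mice (12 probes on 5 days), 1 mouse stood apart from the other 3 by more than Dixon's 95% critical value for 4 samples, where chance flags about 1 in 20 independent groups. These groups share arrays and mice, and some probes belong to the same gene, so their number cannot be set against that rate. Most of the flagged values were those of mouse 310. The flagged Cd3e value of 5.72 in mouse 305 on day 20, beside 0.33 to 0.55 in the others, lay on the spot with the raised local background described above.

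The other Cd3e value, 0.51 in mouse 310 on day 15, stood above 0.10 to 0.17 in the others. Cd5 stood apart in mouse 315 on day 0 (0.32, beside -0.050 to -0.018), in mouse 310 on day 15 (0.11, beside -0.11 to -0.087) and in mouse 305 on day 20 (-0.16, beside 0.24 to 0.32). Zap70 was at -0.16 in mouse 310 on day 0, beside 0.0010 to 0.027, and at 0.030 in the same mouse on day 15, beside -0.0065 to -0.00034. The Cd247 probe A_52_P75298 was at -0.036 in mouse 310 on day 10, beside -0.12 to -0.11. The Cd247 probe A_52_P173555 was at -0.38 in mouse 310 on day 20, beside -0.026 to -0.011, on a day when it was well above background in Cy5 on 2 of 4 arrays. The Cd8a probe A_52_P443334 was at 0.17 in mouse 310 on day 25, beside 0.53 to 0.59.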

How the results depend on the processing

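In the order days 10, 15, 20 and 25 against day 0, day 25 against day 10 and the F test, all probes called were 2343, 1227, 607, 31, 6585 and 5648 as reported, and member probes called were 0, 1, 0, 0, 4 and 3. These are counts among 20920 probes and 12 members. The numbers tested were 41142 and 14 with no filter on dim probes, and 12679 and 11 with Cy5 well above background on all 20 arrays. Without spots on a non-uniform background they were 20902 and 12. Counts of these settings are therefore not shares of the same total. With median centring in place of loess all probes called were 9220, 3, 3, 0, 10458 and 3574 and member probes 8, 0, 0, 0, 9 and 5. With the scanner's log ratio they were 6362, 9151, 2477, 805, 8790 and 11608 and 1, 2, 0, 0, 3 and 4, and with scaling between arrays 3773, 6062, 829, 563, 4607 and 7695 and 1, 1, 0, 0, 1 and 2. The Cy5 channel alone gave 5043, 9597, 5011, 2273, 6191 and 12717 and 4, 6, 2, 3, 4 and 10, and no background correction 8254, 8278, 3726, 2935, 9086 and 11997 and 2, 3, 0, 0, 4 and 7. With no filter on dim probes the counts were 1679, 955, 382, 12, 6029 and 4818 and 0, 0, 0, 0, 4 and 2, with Cy5 well above background on all 20 arrays 2845, 1426, 834, 120, 5930 and 5609 and 0, 1, 0, 0, 4 and 6, and without spots on a non-uniform background 2373, 1238, 619, 28, 6610 and 5714 and 0, 1, 0, 0, 5 and 5. With the mouse number as a replicate block they were 2908, 1447, 1518, 275, 6691 and 5857 and 0, 1, 0, 0, 4 and 3, and the pairing changed the call of 0 of the 60 member differences and of 1 of the 38 called pathway differences, Ptpn6 (limma adjusted p = 0.0623). Leaving out 1 array gave 846 to 3335, 647 to 1720, 105 to 3345, 1 to 2273, 4803 to 7913 and 3760 to 7417 for all probes, and 0 to 1, 0 to 1, 0 to 1, 0 to 1, 4 to 5 and 1 to 7 for members. The count of day 20 was highest without mouse 305 on day 20, that of day 25 highest without mouse 310 on day 25, and those of days 10 and 15 lowest without mouse 305 on day 0. The F test called 7 members without mouse 305 on day 20, 5 without mouse 310 on day 25 and 1 without mouse 305 on day 25.

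Of 60 member differences 44 kept their call with median centring, 57 with the scanner's ratio, 54 with scaling and 44 from Cy5 alone. A difference called in neither fit counts here as kept whatever its sign, and the turns named next are only those called in either fit. With median centring the median of the members on day 20 against day 0 was -0.65, beside 0.031 as reported. With median centring the Cd8a probe A_52_P443334 turned to -1.02 on day 10 against day 0 and Zap70 to 0.48 on day 25 against day 10. From Cy5 alone Cd8a (A_51_P345121) turned to 0.30 and Cd5 to 0.39 on day 10, and Lat to 0.20, 0.31 and 0.48 on days 15, 20 and 25. Of the pathway genes Grap2 turned to 0.57 and Ptpn6 to 0.42 on day 25 against day 10 with median centring, and from Cy5 alone Ptpn6 turned to 0.019 there and Pag1 to 0.078 on day 10. Cd3d on day 15 lost its call with median centring (-1.77, limma adjusted p = 0.0701), with scaling (-1.24, 0.0980) and with no filter (0.0556). The causes were not tested. Signal near background limits both dim probes that were not tested and the second Cd247 probe.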

Other observations

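Before normalization the Cy5 net intensity of the members followed the brightness of the arrays. Its median over the 4 mice was highest on day 0 and lowest on day 15 in 12 of 12 kept probes. In the Cy3 channel, which held the same reference on every array, the median was highest on day 0 in 8 of the 12 probes and on day 10 in the other 4, and lowest on day 15 in 11. For Lat, the Cy5 medians were 1215, 612, 343, 474 and 1120 on days 0, 10, 15, 20 and 25, and the Cy3 medians 532, 576, 390, 445 and 529.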
